A study of Caenorhabditis elegans with 2 samples.

Results

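The 8 genes described here, Y55F3AR.2, gmps-1, cap-2, nra-2, Y25C1A.8, malt-1, tag-353 and T14G11.1, lie at 7 of the 10 highest-signal binding sites of C04F5.9 in Caenorhabditis elegans larvae. The genes cct-8, lin-53 and ceh-38 lie at the same peaks and are not among the 8. These peaks were chosen by the deposited signal itself, so their signal, rank, width and surroundings are given as a description with no test. The 7 peaks stand among 10, with 1195 weaker ones below them in the optimal list, and the 8 genes among 19973 annotated protein-coding genes. The other 3 of the 10 strongest peaks, at mig-5 and cct-1, at lin-9 and at sec-24.1, served for comparison.

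Binding was measured by chromatin immunoprecipitation and sequencing (ChIP-seq) in whole hermaphrodites of strain OP525, genotype unc-119(tm4063) III; wgIs525, at the first larval stage (L1). Larvae had been synchronised by starvation after bleaching and were taken 6 hours later. The strain carries a transgene for C04F5.9 tagged with GFP-FLAG at its C terminus, the antibody was against GFP, and chromatin was sonicated. There were 2 biological replicates of this 1 group and no second condition, so binding by the untagged protein and binding in single tissues were not measured.

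The annotation of C04F5.9 names a C2H2-type domain. C2H2 zinc fingers are short folds held by a zinc ion, and arrays of them in many transcription factors read a few bases of DNA each. In a ChIP-seq peak the summit is the position of highest read pile-up, and a base sequence recurring at summits describes what the bound places share. Many C. elegans genes lie head to head, so that a peak between them is close to the 5′ ends of both and cannot be assigned to either by distance.

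The 7 member peaks shared a base sequence at their summits, and these sequences are shown because 4 of the 7 peaks also share a second stretch. The first part was derived by aligning, without gaps, 20 bp from within 50 bp of each of the 10 strongest summits. It reads GGGTCTCG, then 3 free bases, then CGATTTGCC, and each of its 17 fixed positions was shared by at least 8 of the 10 peaks. The second part reads GGTACGGT, then 1 free base, then GA, and began 16 bases after the first. Its 10 fixed positions were each shared by at least 6 of the 10 peaks, and it was the longest such stretch after the first part. Of the 16 bases between, 5 were also shared by at least 6 peaks and 1 of these by all 10, so they are not free of agreement. Capitals mark bases that match the first part, and the second part where it was present, 5′ to 3′ on the strand of the match (ce11, equal to WBcel235). The sequences are chrIV:1094322-1094378 (+ strand) at Y55F3AR.2, chrII:10868930-10868986 (+) at gmps-1 and cap-2, chrII:3077090-3077146 (+) at Y25C1A.8, chrII:6951522-6951551 (- strand) at malt-1 and chrX:2688723-2688779 (+) at T14G11.1.
Y55F3AR.2: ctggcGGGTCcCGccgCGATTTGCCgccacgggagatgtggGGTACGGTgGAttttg
gmps-1 and cap-2: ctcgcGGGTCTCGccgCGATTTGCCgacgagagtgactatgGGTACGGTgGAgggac
Y25C1A.8: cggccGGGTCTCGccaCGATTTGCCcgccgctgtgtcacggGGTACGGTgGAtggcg
malt-1: tgatgGGGTCTtacaaCGAaTTGCCtgaca
T14G11.1: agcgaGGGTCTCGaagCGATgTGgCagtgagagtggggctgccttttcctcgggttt

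At the gmps-1 and cap-2 peak and at the Y25C1A.8 peak both parts matched at every fixed position. At Y55F3AR.2 the first part had 1 mismatch and the second none. The nra-2 peak, whose sequence is not printed, also had 0 mismatches in each part. These 4 peaks, ranks 1 to 4, therefore carried both parts with the same 16 bases between them.

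The malt-1 peak held the first part with 3 mismatches, and the T14G11.1 peak with 2. The tag-353 peak, also not printed, held it with 0 mismatches. None of these 3 peaks, ranks 8 to 10, had the second part, defined as at most 3 mismatches with a spacing that may differ by 1 bp. The closest stretch had 8 mismatches at malt-1, 5 at tag-353 and 7 at T14G11.1. Among the other 3 of the 10 peaks, lin-9 had the second part with 0 mismatches and sec-24.1 with 3, while mig-5 and cct-1 had 4 at best. Over the 10 peaks the signals with and without the second part overlapped, since sec-24.1 with it had 14869 and mig-5 and cct-1 without it had 21100.

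The 10 peaks had themselves defined the parts, so each part was also built without the peak it was matched to. Built from the other 9 peaks, the first part had 15 fixed positions for each member peak and 0 to 3 mismatches there, the same number at each as before. Built only from the 3 peaks at no member, it had 14 fixed positions, and each of the 7 member peaks held it with at most 3 mismatches. At ranks 11 on, 47 of 1195 optimal peaks (3.93%) reached that number of mismatches. The second part rested on the peaks that hold it. With any 1 of ranks 1 to 4 left out and 6 of the other 9 peaks required to agree, it was not found again, so 0 member peaks held it by that rule. With 5 of 9 required it was found again for each member peak, and the same 4 held it, with 1 or 2 mismatches. The split of the members by the second part is therefore a description of these peaks alone.

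The first part was sought only within 50 bp of each summit, so its nearness to the summit was set in advance. Its centre was between 26 bp before and 9 bp after the summit along the chromosome, and the summit lay inside it at gmps-1 and cap-2, malt-1, tag-353 and T14G11.1. Its centre was 145 to 291 bp from the nearest 5′ end of the member gene. It was on the strand of the gene at 5 members and on the opposite strand at 3, namely gmps-1, Y25C1A.8 and tag-353.

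**Figure D1:**
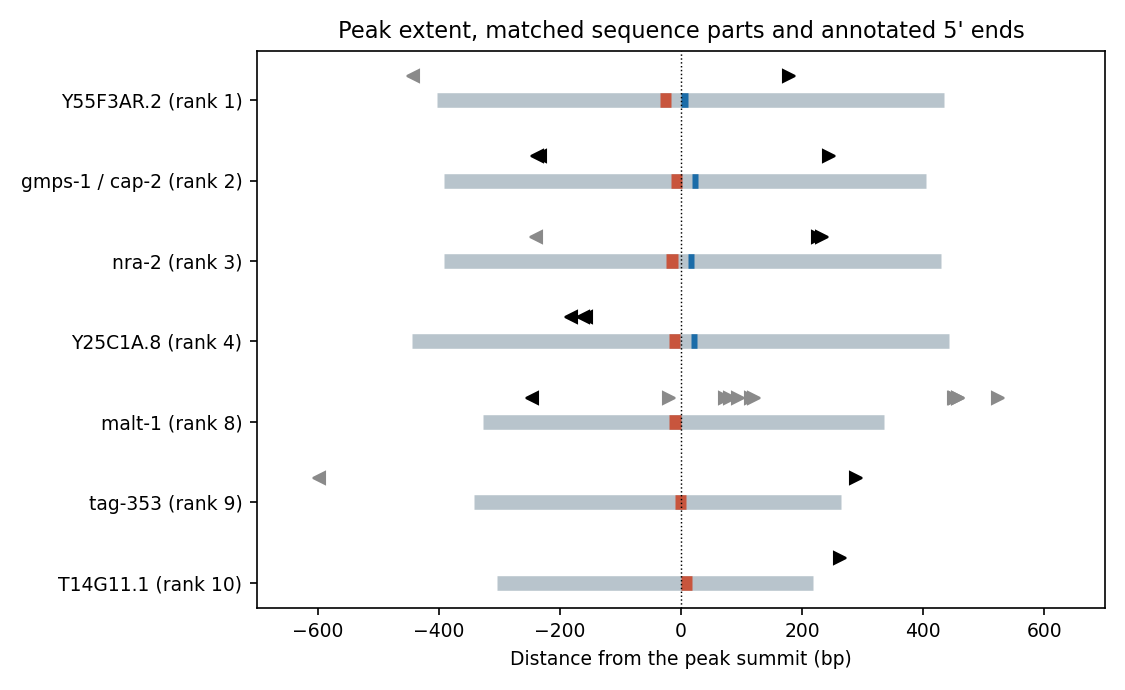
Map of the 7 member peaks by distance from the summit in bp (grey bars: region in the optimal list; red: first sequence part; blue: second part where present; triangles: protein-coding 5′ ends pointing along the gene, black for members and grey for other genes). The centre of the first part is at most 26 bp from each of the 7 summits, within the window searched, and the second is drawn only at ranks 1 to 4.

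Matches to the first part were searched on both strands of the 6 nuclear chromosomes. An exact match occurred at 14 places, and 12 of them lay within 100 bp of an optimal summit. With 1 mismatch 2 of 17 places did, with 2 mismatches 3 of 83, and with 3 mismatches 14 of 845. Outside the 10 strongest peaks these counts were 7 of 9 for exact matches, 1 of 16, 1 of 81 and 12 of 843. The exact matches do not count as 12 separate cases. Of the 14, 5 lay in the 10 strongest peaks, which had defined the part, and 8 lay in sequence with near-identical copies elsewhere (at least 80% identity over at least 100 bp). The remaining exact match, at no peak of the 10 and in no copied sequence, had no region in any of the ce11 lists within 100 bp. The sequence within 100 bp of each of the 7 member summits had no such copy in the genome.

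Among optimal peaks, 0.996% held an exact first part within 100 bp of the summit and 2.57% held it with at most 3 mismatches. These shares include the 10 peaks that defined the part. At ranks 11 on, 7 of 1195 held an exact match (0.586%), all in copied sequence, and 21 held one with at most 3 mismatches (1.76%). In windows of the same length, the shares were 0.04% and 0.347% of the 30000 regions of the combined list. For a window centred 200 bp upstream of a 5′ end they were 0.0501% and 0.461% of protein-coding genes. Neither set is separate from the peaks that defined the part. The 12 combined regions with an exact match are the 12 optimal peaks, and the genes include members such as nra-2 and gmps-1. Both parts together, each with at most 3 mismatches, occurred at 15 places. Of these, 6 were in the 10 strongest peaks, and 1 of the other 9 lay near an optimal summit, at rank 26. A match is a description of these windows, and binding of C04F5.9 to either part was not tested.

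**Figure D2:**
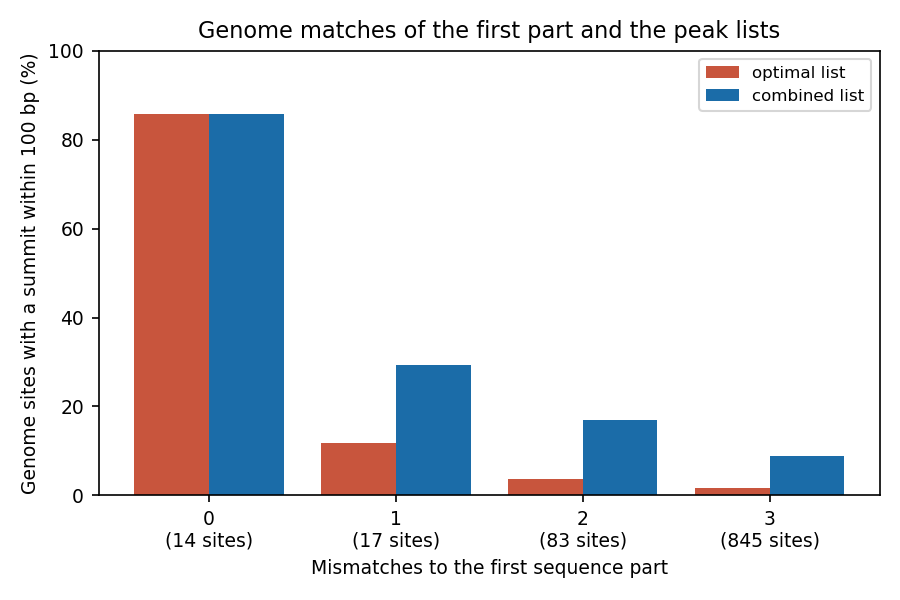
Share of genome matches to the first part that had a summit within 100 bp, in percent, by number of mismatches (red: optimal list; blue: combined list; the number of places is under each pair of bars). The share was 85.7% in both lists for exact matches and 1.66% and 8.76% at 3 mismatches, with the 10 peaks that defined the part included.

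For the whole optimal list only words of 8 bases were ranked, and the leading one was another sequence. The 8-base word CTGCGTCT (or AGACGCAG on the other strand) had the largest excess at summits over flanks 200 to 250 bp away. It lay within 50 bp of the summit in 9.38% of optimal peaks. In 111 peaks it was at the summit only, and in 7 it was in the flanks only. Since the word is shorter than the first part, its share does not compare with the shares above. Of the 7 member peaks, T14G11.1 alone held it, starting 34 bp before the summit. The GC content within 50 bp of the summit was 39.6% at malt-1, 53.5% at tag-353 and at T14G11.1, 56.4% at Y55F3AR.2 and at gmps-1 and cap-2, and 57.4% at nra-2 and at Y25C1A.8. The median over optimal peaks at ranks 11 on was 47.5%, and malt-1 was the only member below it. This window also holds the first part, so GC content here is not separate from the shared sequence. Within 100 bp of the summit the members' median was 45.8%, and no value at ranks 11 on was taken for that window.

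The members' signals ran from 29681 down to 3152. The gap between ranks 4 and 8 comes from the choice of members, since the other 3 of the 10 peaks lie in it with 21100, 19199 and 14869. Signal is the authors' deposited value per region, its scale belongs to each list, and values were compared only within a list. The summed signal of the 7 peaks was 32.8% of the total over the optimal list, whose median was 114.9. Every optimal peak had the same deposited −log10 q of 2.93, so that value did not order them.

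Y55F3AR.2, annotated as a thioredoxin domain-containing protein, had the strongest peak. Its signal was 29681 in the optimal list, 20847 in replicate 1 and 8845 in replicate 2, the highest value of each list. The gene (WBGene00021933, chromosome IV, 1094541 to 1097342, + strand) has 1 annotated 5′ end, 179 bp from the summit. On the other side, 442 bp from the summit, began cct-8, a gene for part of the chaperonin that folds actin and tubulin. The summit was intergenic, inside a region from 1093959 to 1094797. The non-coding gene Y55F3AR.4 also had its 5′ end inside this region, 275 bp from the summit.

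The gene gmps-1 encodes a putative GMP synthase, the enzyme that makes GMP from XMP, and cap-2 encodes the beta subunit of the F-actin capping protein, which binds the fast-growing end of actin filaments. They lie head to head on chromosome II and share 1 peak (10868560 to 10869356). Its signal was 25161 in the optimal list, 17675 in replicate 1 and 7511 in replicate 2, the second highest in each. From the summit it was 244 bp to the 5′ end of cap-2 and 232 bp to the nearest of gmps-1, so distance does not assign the peak to either. A shorter gmps-1 transcript begins 2218 bp from the summit.

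The gene nra-2 encodes nicalin, an endoplasmic reticulum protein that in C. elegans affects the subunit make-up of nicotinic acetylcholine receptors. Its peak (chromosome I, 9619608 to 9620429) had a signal of 22756 in the optimal list, 15928 in replicate 1 and 6822 in replicate 2. The summit lay 227 and 233 bp upstream of the 2 annotated 5′ ends of nra-2 and 240 bp upstream of lin-53, which encodes a histone-binding WD40 protein. Distance does not assign this peak either.

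Y25C1A.8, annotated as zinc finger Ran-binding domain-containing protein 2, had the widest peak of the optimal list (chromosome II, 3076671 to 3077557). Its signal was 22458 in the optimal list, 15789 in replicate 1 and 6673 in replicate 2, close below nra-2 in each list. No other protein-coding 5′ end lay within 500 bp. The summit was 156, 162 and 181 bp upstream of the 3 annotated 5′ ends.

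The gene malt-1 encodes the worm relative of the mammalian paracaspase MALT1, which in C. elegans acts in interleukin-17 signalling in neurons. The peak at malt-1 and ceh-38 (chromosome II, 6951219 to 6951881) had a signal of 8591 in the optimal list, 5706 in replicate 1 and 2895 in replicate 2. The summit was 246 bp upstream of malt-1 and lay in the 5′ UTR of ceh-38, a ONECUT homeobox gene. Of 24 annotated ceh-38 transcripts, 21 began downstream of the summit, by 73 to 524 bp, and 3 began 20 bp before it. The nearest 5′ ends are thus those of ceh-38, and distance does not assign the peak to malt-1.

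The peak at tag-353, annotated as a ubiquitin-like domain-containing protein, had a signal of 5291 in the optimal list, 3559 in replicate 1 and 1746 in replicate 2 (chromosome I, 10400433 to 10401039). The summit was 290 bp upstream of tag-353 and 597 bp upstream of cup-2. It lay in the non-coding gene F25D7.11, 66 bp from its 5′ end, and 155 bp upstream of another non-coding gene, F25D7.9. The peak at T14G11.1, annotated as a membrane-associated protein, was the lowest of the 7 (chromosome X, 2688424 to 2688946), with 3152, 2118 and 1041 in the same order of lists. Its summit was 262 bp upstream of T14G11.1. The first peak outside the 10, at hsr-9 and rps-19, had 2557, 1750 and 805, so the lowest member and its neighbour outside are not far apart.

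**Figure D3:**
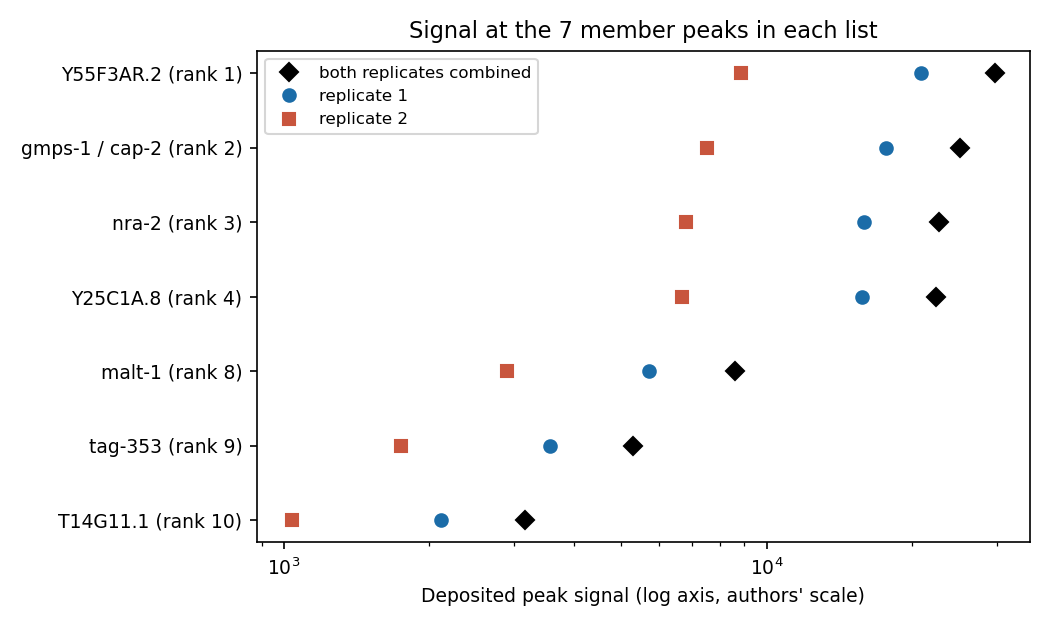
Deposited signal of the 7 member peaks (log axis, the authors' scale; black diamonds: optimal list; blue circles: replicate 1; red squares: replicate 2). The order of the peaks is the same in all 3, from Y55F3AR.2 (29681, 20847 and 8845) to T14G11.1 (3152, 2118 and 1041).

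All 7 member peaks had the same rank in both replicates, and so had the other 3 of the 10. The optimal list was itself kept by rank agreement of these replicates. As a share of the strongest peak of its own list, malt-1 stood at 27.4% in replicate 1 and 32.7% in replicate 2, and T14G11.1 at 10.2% and 11.8%. The members of ranks 2 to 4 differed less, from 84.8% against 84.9% at gmps-1 and cap-2 to 75.7% against 75.4% at Y25C1A.8. The 2 replicates' summits were 0 to 9 bp apart at the 7 peaks, with a median of 3 bp, and 1 bp apart at each of the other 3 of the 10. At ranks 11 on the median was 18 bp over 1191 peaks with a region in both replicates.

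At all 8 members the summit was upstream of every annotated 5′ end of the gene. An optimal summit within 500 bp of a 5′ end held for 5.52% of protein-coding genes, and 67.9% of optimal peaks had such a gene. All 8 members met this by their choice, and so did cct-8, lin-53 and ceh-38, which are not members. A 5′ end was inside the region at 6 members and outside it at tag-353 and T14G11.1. At 4 of the 7 peaks at least 2 protein-coding genes had a 5′ end within 500 bp, as did 24.6% of optimal peaks.

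The member regions were wide. In the optimal list 85.6% of regions had a width of 384 bp, and 1.33% were wider, among them all 7 member peaks. The widths were 839 bp at Y55F3AR.2, 797 bp at gmps-1 and cap-2, 822 bp at nra-2, 887 bp at Y25C1A.8, 663 bp at malt-1, 607 bp at tag-353 and 523 bp at T14G11.1. At ranks 11 on the widest region had 581 bp, at rank 13, and it was the only one there as wide as the narrowest member. In replicate 1 the member widths ran from 493 to 829 bp and in replicate 2 from 472 to 803 bp, with Y25C1A.8 widest and T14G11.1 narrowest in both. The other 3 of the 10 strongest peaks were as wide, with 734, 788 and 779 bp, so width did not set the members apart from them.

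**Figure D4:**
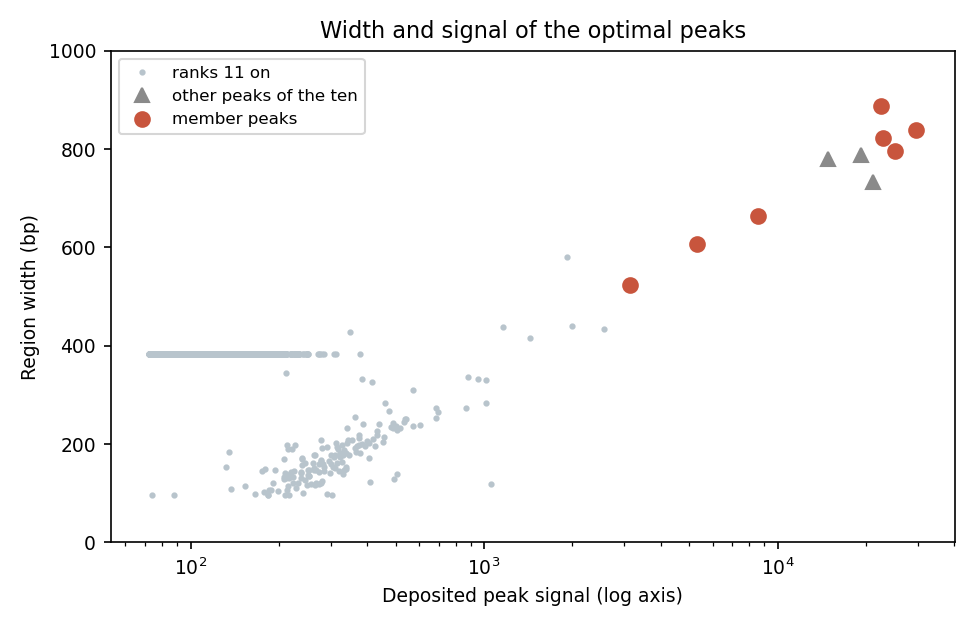
Region width in bp against deposited signal (log axis) for all optimal peaks (red: member peaks; grey triangles: the other 3 of the 10; light dots: ranks 11 on). Most regions lie at 384 bp, and the 7 member peaks lie between 523 and 887 bp.

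Most further regions around the member peaks were weak, but 4 were optimal peaks. The combined list held 50 regions with a summit within 5 kb that did not overlap a member peak, namely 10 each at Y55F3AR.2, at gmps-1 and cap-2 and at nra-2, 8 at tag-353, and 4 each at Y25C1A.8, malt-1 and T14G11.1. Such a region was present for 95.9% of optimal peaks. The median number was 8 at the 7 member peaks, 7.5 at the 10 strongest and 4 at ranks 11 on, where it ran from 0 to 15. The nearest region was 1042 bp away at Y55F3AR.2 and 1608 bp away at Y25C1A.8, the lowest and highest of the 7. None of the 7 had one within 1 kb, which also held for 54.7% of optimal peaks. Regions that overlap the member peak are not counted, and the member regions are wide. In the single lists gmps-1 and cap-2 had one at 907 bp (replicate 2) and tag-353 at 999 bp (replicate 1).

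Of these 50, 46 were outside the optimal list and had signals of 18.0 to 56.3, where the combined list's median was 24.3. Of the 50, 16 had a region summit within 100 bp in both replicates. The 4 that were optimal peaks had ranks 20, 118, 79 and 462, in the order given here. Near gmps-1 and cap-2, 1 lay 3794 bp to the right of the summit, with 879 in the combined list, 539 in replicate 1 and 336 in replicate 2. It lies between cyn-4 and copz-1. The nearest 5′ end was that of copz-1 at 133 bp in the combined list, but that of cyn-4 at 130 bp in replicate 1. Distance does not assign this region to either. Another lay in a gmps-1 intron, with 267, 161 and 103. Its nearest protein-coding 5′ end was that of the short gmps-1 transcript, and its summit was 680 bp upstream of it. The miRNA gene cel-mir-2216 begins between this region and that 5′ end, 1780 bp from the member summit, so the miRNA gene is nearer. The third was 1392 bp to the left of the T14G11.1 summit, 152 bp upstream of immt-1, with 329, 224 and 101, which was 10.4% of the T14G11.1 peak in the combined list. The last, 3578 bp to the left of the nra-2 summit and 89 bp upstream of K07A1.10, had 133, 86.0 and 47.2.

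**Figure D5:**
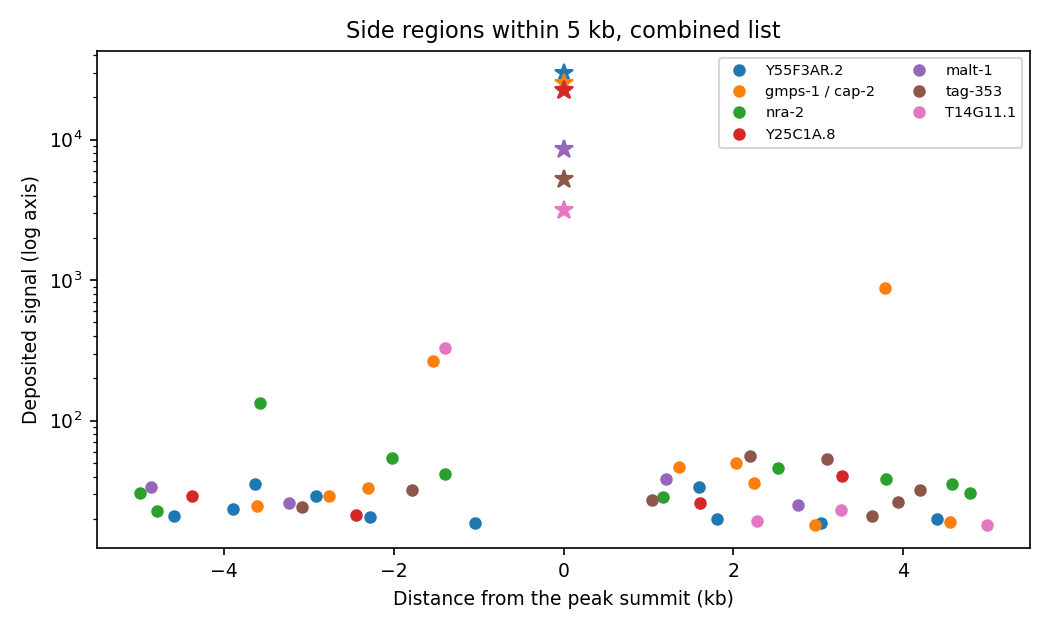
Deposited signal (log axis) of regions within 5 kb of the 7 member summits in the combined list, by distance in kb (stars: the member peaks; circles: side regions; colours: members). Apart from 4 regions with 133 to 879, the side regions have 18.0 to 56.3.

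Pathway lists were made for cap-2, gmps-1, nra-2 and malt-1 only. Their other genes had a peak about as often as protein-coding genes in general. Of 26 listed genes for actin and its capping, 25 matched the annotation by name and 4 had an optimal summit within 500 bp of a 5′ end, and besides cap-2 these were arx-7, act-4 and arx-6, with signals of 76.5, 75.3 and 74.5. Arp2/3 subunits (arx-6, arx-7) nucleate branched actin, and act-4 encodes an actin. For purine nucleotide synthesis 9 of 13 listed genes matched, and of these only gmps-1 had a peak; the 4 others, and pathway genes not listed, were not examined. Of 17 matched among 19 genes of nicalin and nicotinic receptor assembly only nra-2 had one, and of 7 among 7 of paracaspase and interleukin-17 signalling only malt-1. Leaving out the members, 3 of 54 matched list genes (5.56%) had a peak, near the 5.52% of all protein-coding genes. The counts per list are therefore not a result about the members' pathways.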

How the data were processed

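The authors deposited peak lists made from ChIP-seq reads, 1 for each replicate, 1 for both combined, and 1 optimal list kept by rank agreement between replicates (irreproducible discovery rate, IDR). The signal per region, the −log10 q value and the summit offset are the authors' deposited values. For the aligner, the peak caller and the IDR cutoff, a name or value is not given in the sources used here. Read depth is unknown. The 1205 optimal regions were the 1205 highest of the combined list in ce11. Coordinates are 1-based ce11, and ce10 lists were used by rank only.

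The 8 members and the pathway lists were chosen with earlier results of these data known. The genes named are the members and genes with a 5′ end within 500 bp of a member summit. Also named are genes at the other 3 of the 10 peaks and at the next ranks, and the pathway lists. For side regions the gene with the nearest protein-coding 5′ end is named. The genes cup-2, F25D7.11, F25D7.9, Y55F3AR.4 and cel-mir-2216 were named after their positions were seen. Genes came from Ensembl release 115, and 58 of 65 list symbols matched it. Replicate regions were matched by an overlap of at least 1 bp. The sequence parts were derived from the 10 strongest peaks after the data were seen. Copies were sought with blastn 2.17.0, and other steps used Python 3.11.15 with numpy 2.4.6 and pandas 2.3.3. The alignment, the genome search and the interval functions were tested on simulated data; the alignment at first returned windows shifted by a base or more there and was corrected, which left the parts reported here as they were. No test between groups was made, since there is 1 group.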

Additional observations from a re-analysis of the deposited data

How the results depend on the processing

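Most values kept their size under the alternatives tried. The median width of the member peaks was 797 bp, and 697 to 763 bp in 1 replicate alone. The 50 side regions within 5 kb became 12 within 2 kb, 93 within 10 kb, 4 when only optimal peaks counted, and 41 to 58 in 1 replicate alone. The members' share of summed signal was 32.8%, against 38.7% over the upper part of the optimal list and 30.1% to 33.7% in 1 replicate alone. The median GC content was 56.4%, and 56.9% within 25 bp and 45.8% within 100 bp of the summit. The leading word was in 1 member peak, and in 0 within 25 bp. All 8 members had a 5′ end within 500 bp, and 6 within 250 bp, where tag-353 and T14G11.1 dropped out. The cause of these shifts was not tested.

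Alternatives for the sequence parts were chosen after seeing the data. With 1 mismatch allowed, 5 of the 7 member peaks held the first part. The second part was in 4 member peaks with 2 and with 4 mismatches allowed. Built from the other 9 peaks it was in 0 when 6 of them had to agree, since each of the 4 had helped to define it, and in 4 when 5 had to. Of the exact matches, 8 were within 50 bp of an optimal summit and 12 within 200 bp. No paired analysis was possible because there is 1 group.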
